A study of Mus musculus with 45 samples.

Results

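Tyro3, Pard3, Wdtc1, Cct6b and Dnah2os are 5 mouse genes whose most abundant transcript in neural progenitor cells differed from the most abundant one in embryonic stem cells. They were picked for that exchange from the deposited transcript values, so the exchange itself is described here without a test. They make up 5 of the 23575 genes in the gene table, and their 63 quantified transcripts are part of 276608. Mouse neural progenitors were reprogrammed toward induced pluripotent stem cells and sequenced as full-length cDNA on Nanopore flow cells in 45 libraries. The progenitors came from the Oct4-GFP stem cell line O4G, itself derived from the R1 line, and were grown with EGF and FGF-2.

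For the 22 R9 libraries, RNA enriched for poly(A) tails was turned into cDNA without amplification. The cDNA of the 23 R10 libraries was amplified by PCR. Each chemistry had 4 progenitor libraries, of which 2 were wild type and 1 each carried the OKMS-Luciferase-AS or the OKS-Luciferase-AS system. In these systems doxycycline switches on the reprogramming factors, which differ by name in Myc, and the role of the luciferase element is not given. Wild-type progenitors kept for 2 days in FBS-LIF with doxycycline served as the medium control, with 1 R9 and 2 R10 libraries. Induction in FBS-LIF with doxycycline was sampled in R9 on days 2, 4, 6, 10, 14 and 20 in both systems. In R10 it was sampled on days 2, 4, 6, 10 and 18 for OKMS and on days 2, 6 and 18 for OKS. Each of these time points was 1 library. Cultures moved to 2i-LIF, a medium with LIF and the inhibitors CHIR-99021 and PD0325901, were taken in R9 on days 14 and 20 for OKMS and day 20 for OKS, and in R10 on day 18 for both systems. The R9 cultures were moved on day 6, and the day of the move is not given for R10. Stem cells were grown in 2i-LIF, with 2 libraries in R9 (O4G, R1) and 7 in R10 (2 of O4G, 3 of R1, 2 of the line R1-Clone3). Nothing in the labels says which libraries came from separate cultures, so p-values measure only the spread between these libraries.

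One gene can give several transcripts through different start sites, different splice choices and different 3′ ends, and a cell type often has its own preferred one. Tyro3 encodes a receptor tyrosine kinase of the TAM family, which is prominent in neural tissue and binds the ligands Gas6 and protein S. Pard3 encodes the scaffold of the Par polarity complex, which places cell junctions and orients dividing neural progenitors. Wdtc1 encodes a WD-repeat protein that acts as a substrate receptor of the CUL4-DDB1 ubiquitin ligase. Cct6b encodes a testis-enriched form of a subunit of the chaperonin TRiC, which folds actin and tubulin. Dnah2os is a non-coding transcript antisense to Dnah2, a dynein heavy chain of cilia.

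Gene-assigned reads numbered between 447990 and 1390424 per R9 library and between 566599 and 4236442 per R10 library. Reads placed on a quantified transcript were 38.0% to 46.1% of these in R9 and 40.5% to 52.9% in R10. A transcript listed at 0 may still be present among reads that were given to the gene alone. In bulk libraries, fewer cells of a type and less RNA per cell cannot be told apart. Progenitor markers (7 of 8 in the table) summed to between 4511 and 7087 CPM in the progenitor libraries and between 89.5 and 175.2 CPM in the stem cell libraries. Stem cell markers (8 of 8) summed to between 14.8 and 33.7 CPM and between 11256 and 14380 CPM in the same libraries. Both sets of labels therefore matched their defining markers.

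The transcripts that exchanged places were often not the annotated full-length ones. Of the 63 transcripts, 7 matched an annotated splice pattern over its whole length, 12 matched part of one, 17 joined known splice sites in a new way and 27 used at least 1 splice site that is not annotated. The authors kept 15 of 151 assembled transcripts for Tyro3, 23 of 149 for Pard3, 18 of 179 for Wdtc1, 4 of 33 for Cct6b and 3 of 6 for Dnah2os. Coordinates below are on mm10, and every junction of the 63 transcripts had a canonical splice pair per the deposited classification. Transcripts are named by gene symbol and the number in the deposited identifier.

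**Figure D1:**
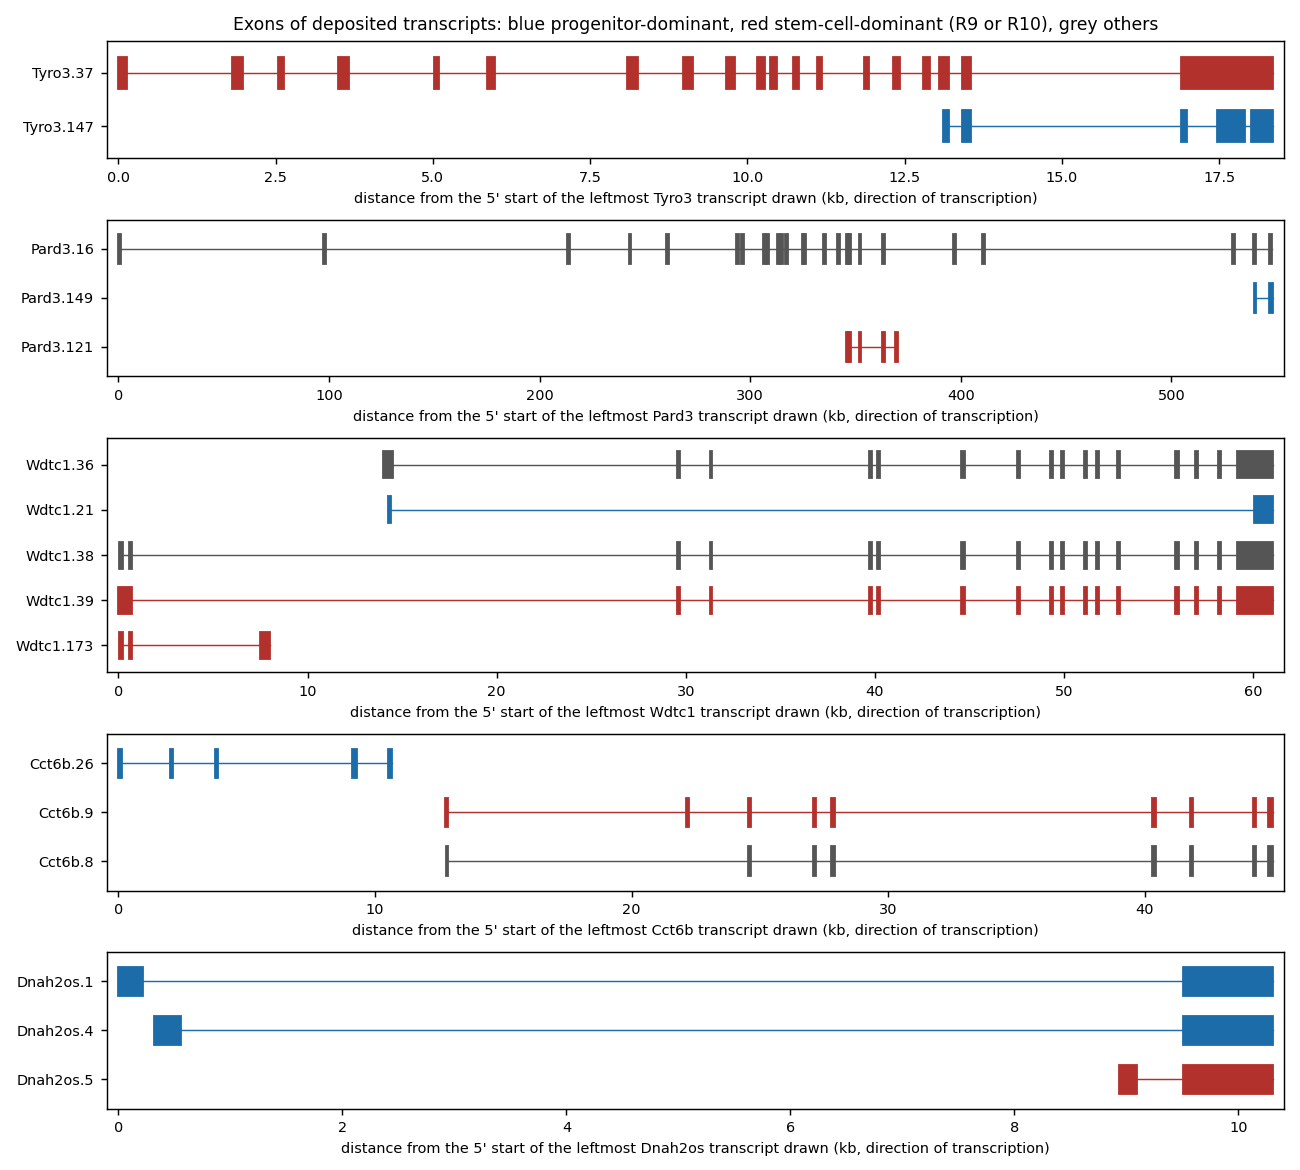
Exons (boxes) and introns (lines) of the main transcripts of each gene to scale, against distance in kb from the most upstream start drawn, in the direction of transcription, with transcripts that led in progenitors in blue, in stem cells in red and others in grey. The progenitor transcripts Tyro3.147, Pard3.149 and Wdtc1.21 have 5, 2 and 2 exons, against 19 exons in Tyro3.37, 25 in Pard3.16 and 16 in Wdtc1.36.

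Tyro3 lies at chr2:119797733-119818104 on the plus strand (ENSMUSG00000027298). Its progenitor transcript, Tyro3.147, spans chr2:119812864-119818104 and has 5 exons in 1122 bases. It begins inside an annotated coding exon (chr2:119812803-119812962), so its first exon is the last 99 bases of that exon, and that start lay outside the CAGE-supported start regions. The annotated last exon, chr2:119816644-119818104, is cut into 3 pieces in Tyro3.147 by the removal of 477 bases, of which 288 are coding, and of 98 bases further on. The predicted reading frame has 117 residues and was marked as a likely target of nonsense-mediated decay. The full-length Tyro3.37 matches an annotated transcript, with 3753 bases in 19 exons and a reading frame of 874 residues. The 2 junctions that cut the last exon in Tyro3.147 are printed 5′ to 3′, the first of them beside the uninterrupted Tyro3.37 sequence at its donor and acceptor, with capitals for the 15 bases after the junction or after the matching position.
Tyro3.147 exon 3 to 4: ctgggccacctgtctCCTGGCATCAGTTCA
Tyro3.37 across the same donor: ctgggccacctgtctGTGCTGTCCACCAGC
Tyro3.37 across the same acceptor: agccgctctggccagCCTGGCATCAGTTCA
Tyro3.147 exon 4 to 5: ctgtggggctctgagGCATTTCAGGACCCC
In the uninterrupted exon the first removed stretch begins with GT and ends with AG, the usual letters of an intron. A spliced last exon is not particular to Tyro3.147, since 4 other quantified Tyro3 transcripts (Tyro3.23, Tyro3.64, Tyro3.106 and Tyro3.135) also have one. Their cuts need not be those of Tyro3.147, since Tyro3.23 has a reading frame of 874 residues, as Tyro3.37 does. The spliced form counted below may therefore pool different cuts. The first exon of Tyro3.147 holds coding sequence of the kinase region and is printed because Tyro3.147 begins inside an exon that Tyro3.37 holds whole.
Tyro3.147 exon 1: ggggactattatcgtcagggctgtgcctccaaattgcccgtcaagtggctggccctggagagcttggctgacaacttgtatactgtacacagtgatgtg

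Tyro3.147 was the main quantified Tyro3 transcript of progenitors and was listed at 0 in every stem cell library. In R10 it stood at 100.3 and 106 TPM in the wild-type progenitors, 178 TPM in the OKMS and 151 TPM in the OKS progenitors, from 177, 214, 216 and 138 reads. In R9 the progenitor values were 69.6 and 122 TPM (wild type), 99.5 TPM (OKMS) and 66.7 TPM (OKS). Only 156 of the 3342 Tyro3 reads of the 7 R10 stem cell libraries were placed on any transcript and none on Tyro3.147, which allows up to 1.92% of the placed reads (3 reads, counting error only). The unplaced reads are not bounded by this. The groups did not overlap in either chemistry, which the choice of the gene fixes. Tyro3.147 was also at 0 in both R10 medium controls (0 of 15 placed reads, up to 20%) and in all 12 R9 induction libraries (0 of 32 placed reads, up to 9.38%). It was present again on day 18 in R10, at 53.9 TPM in OKMS and 88.2 TPM in OKS in FBS-LIF with doxycycline, and at 49.1 and 53.1 TPM in the matching 2i-LIF cultures. These 4 libraries held 23, 41, 17 and 21 reads of it. In the 2i-LIF cultures of R10 stem cell markers summed to 14283 to 15896 CPM and progenitor markers to 86.4 to 167 CPM, close to the stem cell libraries, while Tyro3.147 stood at a level that no stem cell library had. The R9 libraries of days 14 and 20, in both media, had none.

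The full-length Tyro3.37 had a low TPM in both cell types. TPM covers the placed reads alone, which were 54.6% of Tyro3 reads in R10 progenitors and 4.67% in R10 stem cells. A change among the unplaced reads cannot be seen. Its R10 progenitor values were 2.88, 2.23, 2.71 and 2.94 TPM, and its 7 R10 stem cell values ran from 1.43 to 3.61 TPM (104 reads). Apart from the library at 3.61 TPM, the other 6 ran from 1.43 to 1.99 TPM, below all 4 progenitor values. Its share of the summed Tyro3 TPM was 2.04% ± 0.524 (SD, n = 4) in progenitors and 64.3% ± 8.69 (SD, n = 7) in stem cells, as Tyro3.147 went from 96.7% ± 1.05 to 0%. The dominant Tyro3 transcript of R10 thus changed with Tyro3.147 going to 0 and without a rise in the mean TPM of Tyro3.37 (2.69 ± 0.321 in progenitors, SD, n = 4, and 2.03 ± 0.721 in stem cells, SD, n = 7). In R9 the stem cell lead of Tyro3.40, a fragment of 4 exons from the 5′ end of the gene, rested on 1 read.

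The gene total moved little beside this. Tyro3 gene CPM in R10 progenitors was 101, 112, 216 and 181, and in R10 stem cells it ran from 130.3 to 191 with a median of 139, so the groups overlapped. When all Tyro3 transcripts were sorted by the splicing of the last exon, a sorting chosen after the values were seen, 753 of 824 placed reads in R10 progenitors (91.4%) had the spliced form, of which 745 were Tyro3.147 itself. In R10 stem cells 9 of 156 (5.77%, 95% exact binomial interval 2.67% to 10.7%) had it and 146 (93.6%) had the whole last exon. Leaving out the R1 library that has no replicate number, 5 of 143 (3.50%) had it. Without Tyro3.147, 8 of 79 progenitor reads (10.1%, 4.47% to 19.0%) were spliced, so the contrast restates the transcript the gene was chosen for. In the 2i-LIF cultures of R10 day 18 the spliced form had 39 of 43 placed reads.

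**Figure D2:**
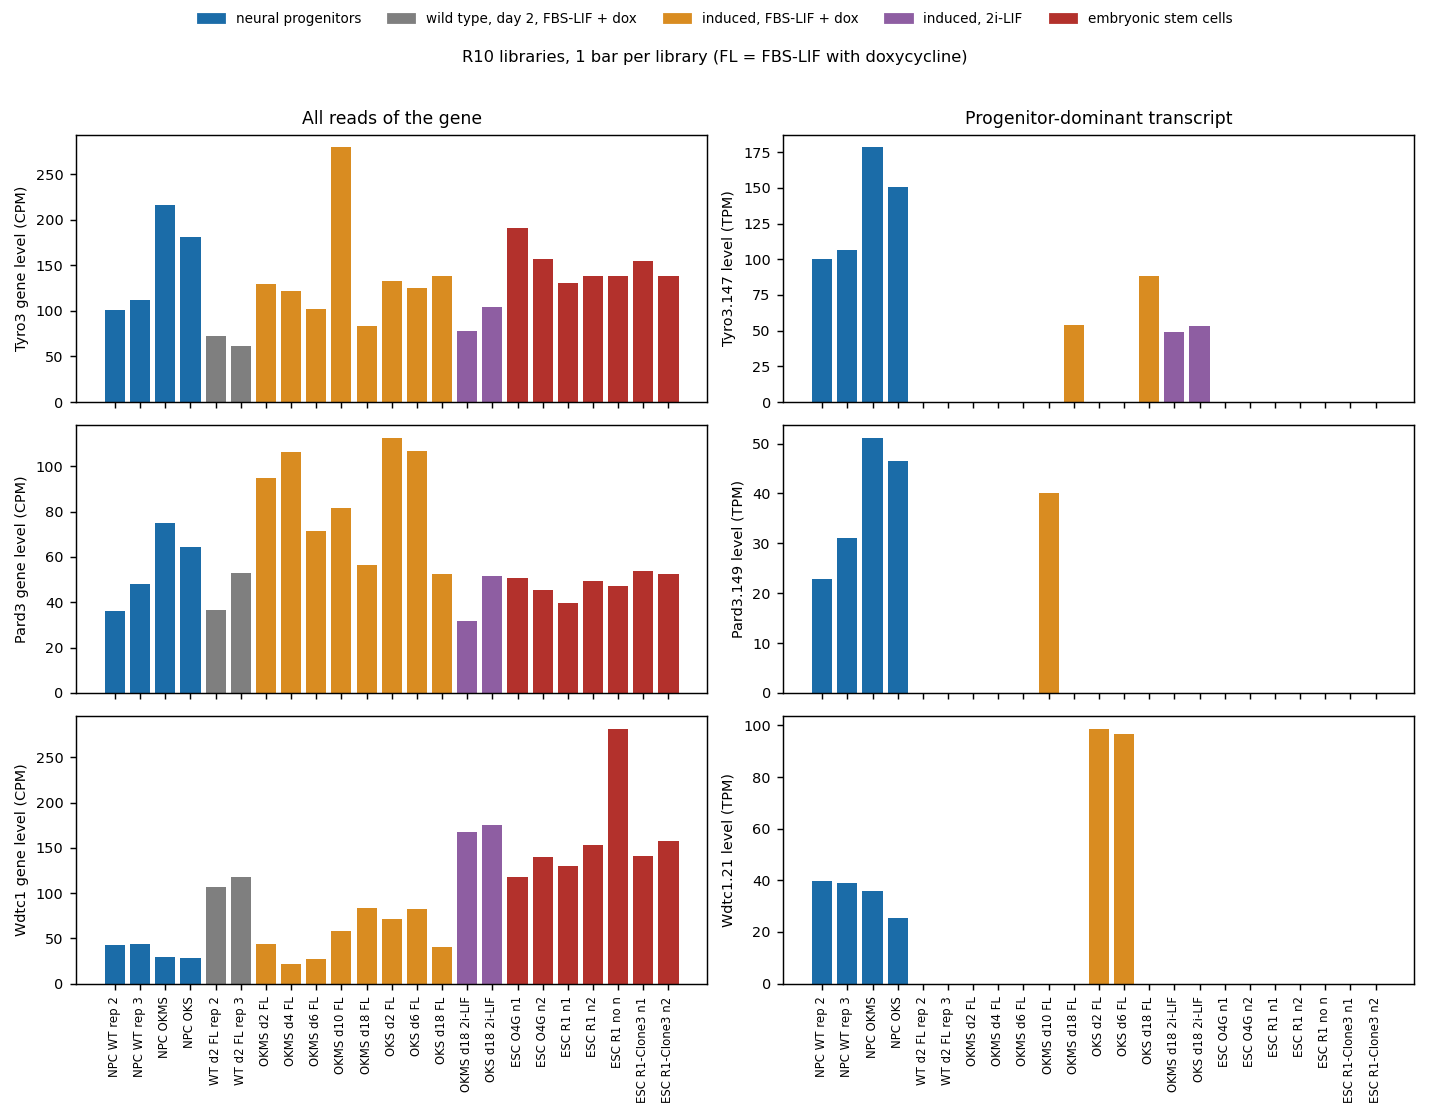
Gene level in CPM (left) and level of the leading progenitor transcript in TPM (right) of Tyro3, Pard3 and Wdtc1 in the R10 libraries, with 1 bar per library, colored by progenitors, medium control, induced cells in FBS-LIF with doxycycline or in 2i-LIF, and stem cells. For Tyro3, gene CPM overlaps between progenitors and stem cells while Tyro3.147 falls from between 100.3 and 178 TPM to 0.

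Pard3 lies at chr8:127063893-127612286 on the plus strand (ENSMUSG00000025812). Its progenitor transcript, Pard3.149, is a 2-exon transcript of 1977 bases at the 3′ end of the gene (chr8:127603142-127612285) that was classed as non-coding. Its first exon has 123 bases, of which 45 lie in an annotated exon, and its second exon of 1854 bases is nearly all of the message. The transcript with the highest mean TPM over the stem cell libraries of either chemistry, Pard3.121, has 5 exons in 915 bases within the gene (chr8:127409555-127433141), with a predicted reading frame of 98 residues. The full-length Pard3.16 has 25 exons and a reading frame of 1334 residues. The starts of Pard3.149 and Pard3.121 lay outside the CAGE-supported start regions, and that of Pard3.16 lay within them.

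In R10 progenitors Pard3.149 stood at 22.8 and 31.1 TPM (wild type), 51.1 TPM (OKMS) and 46.5 TPM (OKS), from 71, 110, 109 and 75 reads. The R9 progenitors gave 19.0, 37.9, 31.2 and 27.9 TPM in the same order. All 9 stem cell libraries listed it at 0, and in R10 0 of 141 placed reads allow up to 2.13% of these, with 1066 reads of the gene in all. Pard3.149 was at 0 in both R10 medium controls (0 of 24 placed reads, up to 12.5%), in every OKS induction library and in every 2i-LIF library. In OKMS it returned on day 10, at 22.5 TPM in R9 (15 reads) and 40.0 TPM in R10 (42 reads), and R9 had 16.3 TPM on day 14 and 6.75 TPM on day 20. The R10 OKMS library of day 18 listed it at 0, with 9 placed reads among 38 reads of the gene. No R9 OKS library of days 10, 14 and 20 had it, and R10 had no OKS library of day 10. Those R9 OKS libraries held only 6, 3 and 3 placed Pard3 reads, so their zeros bound its share weakly or not at all. With 1 library per day this difference between the systems is described and not tested.

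Pard3.121 was at 0 in all progenitor and FBS-LIF libraries. Its 7 R10 stem cell values were low and uneven, at 3.00 and 2.45 TPM in O4G, 0.48, 0.60 and 5.85 TPM in R1 (the last in the library with no replicate number) and 1.02 and 1.38 TPM in R1-Clone3, from 24 reads in all. By line it led in R1 and R1-Clone3 in R10, while in O4G, the line the progenitors came from, the R10 lead was Pard3.146, with a mean of 3.30 TPM (37.0% of the summed TPM, 9 reads). R9 stem cells had 2.29 and 9.24 TPM from 1 and 4 reads, and the R9 OKMS cultures in 2i-LIF had 8.52 TPM on day 14 and 5.05 TPM on day 20, from 3 and 2 reads. The other 3 cultures in 2i-LIF, both of R10 (0 of 10 placed reads, up to 30%) and the R9 OKS culture of day 20 (2 placed reads), listed it at 0. Its share in R10 was 33.3% ± 19.5 (SD, n = 7). The same donor site joins a different next exon in Pard3.121 and in the full-length Pard3.16, as the following junctions show, with capitals for the bases after the junction.
Pard3.121 exon 4 to 5: gggggacatgttcagCCTGGCCAAACTGAA
Pard3.16 exon 20 to 21: gggggacatgttcagGTTTGGCAAACATCG
Placed Pard3 reads were sorted by 3′ end, a sorting chosen after the values were seen. The full 3′ end is not 1 place and pools the ends of 11 transcripts, from chr8:127610831 to chr8:127612285. The short 3′ end likewise pools 11 transcripts, with ends from chr8:127380501 to chr8:127433141. In R10 progenitors 404 of 423 placed reads (95.5%) ended at the full 3′ end and 19 (4.49%) at a short one. Pard3.149 itself gave 365 of these 404, and without it 39 of 58 reads (67.2%, 95% exact binomial interval 53.7% to 79.0%) ended at the full 3′ end. In R10 stem cells 63 of 141 (44.7%, 36.3% to 53.3%) ended at the full and 75 (53.2%, 44.6% to 61.6%) at a short 3′ end. Without the R1 library that has no replicate number these were 60 (49.6%) and 58 (47.9%) of 121. In R9 88 of 95 progenitor reads (92.6%) ended at the full 3′ end, but without Pard3.149 5 of 12 did (41.7%, 15.2% to 72.3%) and 7 (58.3%) were short, against 12 (46.2%, 26.6% to 66.6%) full and 10 (38.5%) short of 26 in R9 stem cells. Without Pard3.149 the full share was thus higher in progenitors in R10 and lower in R9, where the intervals overlap widely. Pard3 gene CPM overlapped between the groups, at 36.2, 47.9, 75.1 and 64.3 in R10 progenitors and between 39.7 and 53.7 in R10 stem cells.

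**Figure D3:**
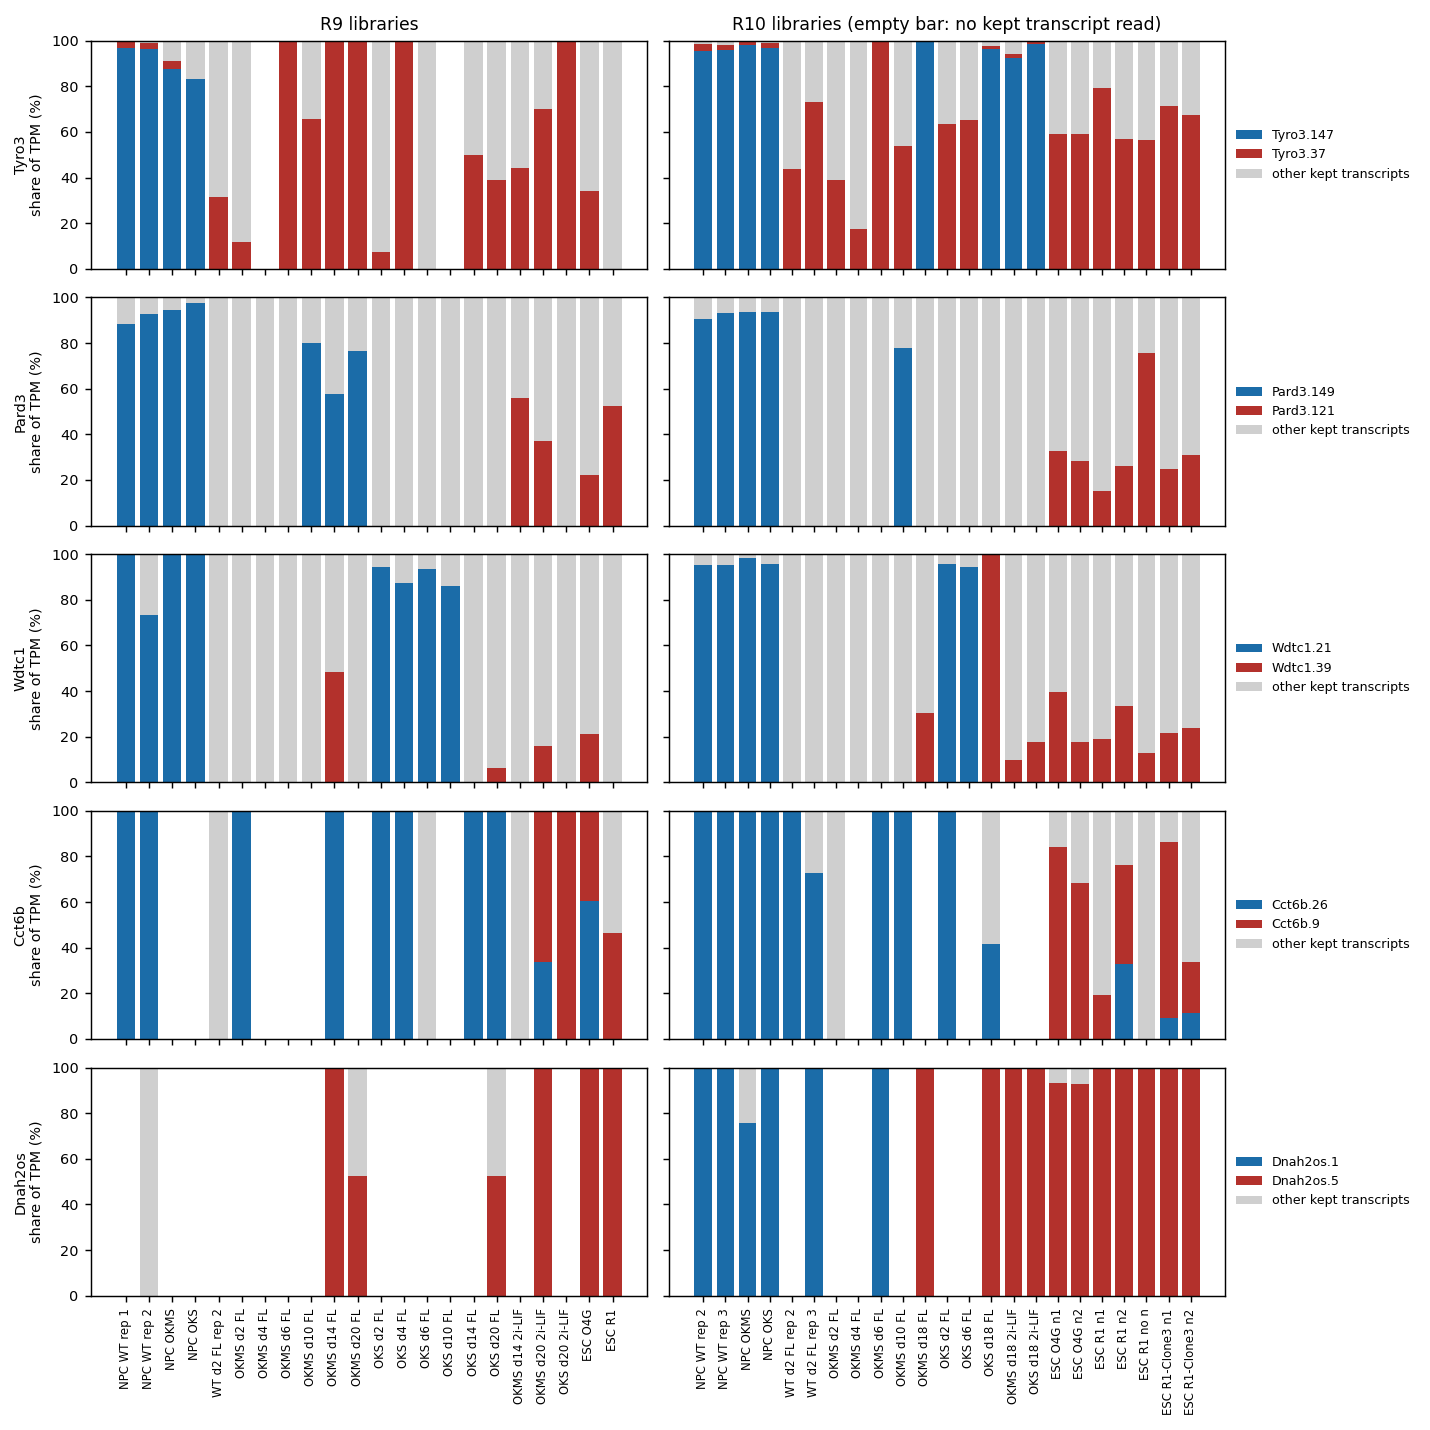
Share of the summed transcript TPM of each gene, in percent, held by its leading R10 progenitor transcript (blue), its leading R10 stem cell transcript (red) and its other quantified transcripts (grey) in every R9 and R10 library, with 1 bar per library and no bar where no read was placed. For Tyro3.147, Pard3.149 and Wdtc1.21 the R10 means are 96.7%, 92.7% and 96.1% in progenitors and 0 in stem cells.

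Wdtc1 lies at chr4:133292459-133353481 on the minus strand (ENSMUSG00000037622), and its exchange involved both splicing and the place of the first exon. The progenitor transcript Wdtc1.21 (chr4:133292466-133339266) joins a first exon of 118 bases to a last exon of 987 bases across 45696 bases, which leaves 1105 bases and a predicted reading frame of 148 residues. It begins inside the first exon of the full-length Wdtc1.36 (chr4:133338996-133339504), which has 16 exons, 4364 bases and a reading frame of 677 residues. Wdtc1.39, which had the highest mean TPM in R10 stem cells, and the related Wdtc1.38 keep the reading frame of 677 residues, but the start of Wdtc1.39 lies 14247 bases upstream of that of Wdtc1.21. Both begin with a first exon that Wdtc1.36 lacks, and Wdtc1.38 splices a further stretch out of it. Those upstream exons overlap annotated exons of Wdtc1-203 and Wdtc1-204, so both first-exon places are annotated. The term annotated start is used here for the first exon of Wdtc1-201, the coding transcript of 16 exons. The junctions below show the differences between these transcripts. Capitals mark the bases after the junction or, for the uninterrupted sequence, after the matching position.
Wdtc1.21 exon 1 to 2: ccggccaggcgccggGCCTACCCTGCTGAG
Wdtc1.36 across the same donor: ccggccaggcgccggGCGGGGAGCATGGGA
Wdtc1.36 across the same acceptor: agagctccccgccagGCCTACCCTGCTGAG
Wdtc1.36 exon 1 to 2: gaagagacctgacagGTAATTAAATGCTTG
Wdtc1.39 exon 1 to 2: cacaaatatgtccagGTAATTAAATGCTTG
Wdtc1.38 exon 1 to 2: agcctgggctacacaCCCCTCCCACCCCAG
The stretch removed in Wdtc1.21 begins with GC and ends with AG, the rarer of the canonical pairs. Wdtc1.36 and Wdtc1.39 enter the same second exon from different first exons. A window of 250 bases of the RefSeq promoter of Wdtc1 lies at chr4:133339316-133339565. It held 33 CG pairs, against a median of 6 over the same window of 32851 RefSeq promoters (GRCm38.p6). The window overlaps the first exons of Wdtc1-201, which begins at chr4:133339324, and of Wdtc1.36, which begins at chr4:133339504. On both strands this window held CCAAT 1 time and neither TATAAA nor GGGCGG, which occur in 33.8%, 12.4% and 32.7% of those promoters.

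In R10 Wdtc1.21 stood at 39.7 and 38.9 TPM in the wild-type progenitors, 36.0 TPM in OKMS and 25.5 TPM in OKS progenitors, from 69, 77, 43 and 23 reads. In R9 the values were 15.7, 5.81, 13.3 and 24.9 TPM from 6, 3, 5 and 7 reads. It was at 0 in all 9 stem cell libraries, where 0 of 218 placed R10 reads allow up to 1.38% of these, with 3422 reads of the gene in all. Both R10 medium controls also listed it at 0 (0 of 48 placed reads, up to 6.25%), as did every OKMS induction library of both chemistries. In OKS it was present early, at 98.6 TPM on day 2 and 96.5 TPM on day 6 in R10 (108 and 96 reads). The R9 OKS libraries gave 24.8, 26.1, 44.1 and 39.6 TPM on days 2, 4, 6 and 10, and 0 from day 14. OKS and OKMS libraries thus did not overlap on the days both were sampled up to day 10. This pattern of 1 library per day was seen before it was described and was not tested. The OKMS libraries held few placed Wdtc1 reads, with 1 on day 2 in each chemistry, so their zeros cannot be told apart from a lack of placed reads. In all induction libraries that listed it at 0, late OKS included, 0 of 28 placed reads in R9 allow up to 10.7% and 0 of 25 in R10 up to 12%.

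The stem cell forms were spread over many transcripts. The R10 lead in mean TPM went to Wdtc1.175 in O4G (2 reads), Wdtc1.173 in R1 (8 reads) and Wdtc1.39 in R1-Clone3 (22 reads). TPM divides reads by transcript length, and Wdtc1.39 has 4583 bases against 477 in Wdtc1.175 and 878 in Wdtc1.173. Over all 7 libraries Wdtc1.39 had 79 reads, so these leads are not an order by reads and show no preference of a line. Wdtc1.173 (3 exons, 878 bases) and Wdtc1.175 (2 exons, 477 bases) also begin upstream but hold none of the annotated Wdtc1 coding sequence. Their last exon overlaps no annotated exon of the gene, and their predicted reading frames have 152 and 65 residues. Wdtc1.39 ran from 0.88 to 1.90 TPM (79 reads) and Wdtc1.38 from 0.63 to 1.45 TPM (59 reads) in the 7 R10 stem cell libraries, and Wdtc1.39 held 23.9% ± 9.46 (SD, n = 7) of the summed TPM. In R9 the leading stem cell transcript was Wdtc1.173, which rested on 2 reads and was seen in 1 of the 2 libraries. All placed reads were also sorted by the first exon, a sorting chosen after the values were seen, in the libraries that chose the gene. In R10 stem cells the placed reads were 218 of 3422 (6.37%) and include the leading stem cell transcripts. In R10 progenitors 245 of 246 placed reads began at the annotated start. Without Wdtc1.21 these were 33 of 34 (97.1%, 95% exact binomial interval 84.7% to 99.9%). In R10 stem cells 9 of 218 (4.13%, 95% exact binomial interval 1.90% to 7.69%) began there and 182 (83.5%, 77.9% to 88.2%) began upstream. The same held in R9, with 24 of 25 progenitor reads at the annotated and 13 of 14 stem cell reads at the upstream start, although 21 of the 24 were Wdtc1.21 itself. The R10 medium controls stayed with the annotated start, with 42 of 48 reads (87.5%, 74.8% to 95.3%), while the 2i-LIF cultures had 0 reads there and 15 of 21 upstream in R10 and 15 of 17 in R9.

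In the time courses upstream reads were few before the late days. In R9 OKMS the upstream start had 0, 0, 1, 2, 3 and 5 reads on days 2, 4, 6, 10, 14 and 20, and the annotated start had 1 read on each day up to day 14 and 0 on day 20. In R9 OKS the annotated start had 8, 16, 16, 13, 1 and 3 reads and the upstream start 2, 3, 0, 0, 0 and 8. Upstream reads outnumbered annotated ones from day 10 in R9 OKMS and on day 20 in R9 OKS. In R10 OKMS the annotated start had 1, 5, 2, 4 and 0 reads on days 2, 4, 6, 10 and 18 and the upstream start 0, 1, 0, 3 and 2. In R10 OKS the annotated start had 123, 116 and 0 reads on days 2, 6 and 18 and the upstream start 0, 1 and 1. These are single libraries with few placed reads, and the intervals on such shares are wide.

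**Figure D4:**
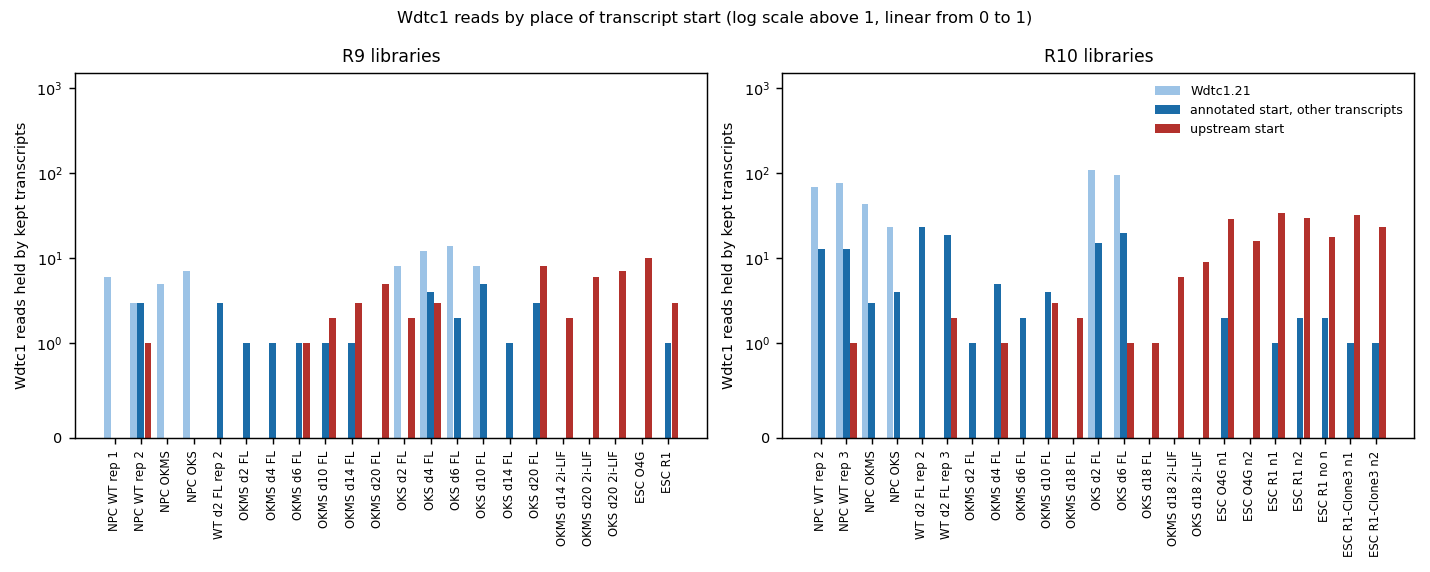
Placed Wdtc1 reads of Wdtc1.21, of other transcripts at the annotated start and of the upstream start in each R9 (left) and R10 (right) library, on an axis of read number that is linear from 0 to 1 and logarithmic above. Progenitors, medium controls and early OKS libraries carry reads of the annotated start, and stem cells carry mostly upstream reads (182 of 218 in R10).

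Wdtc1 gene CPM was higher in stem cells without overlap, in the contrast that chose the gene, and is given as a description. In R10 progenitors it was 42.2, 43.9, 29.4 and 28.0, and in R10 stem cells it ran from 118 to 281 with a median of 141. The library of 281 CPM was the R1 library without a replicate number. Without it the other 6 ran from 118 to 157 with a mean of 140 ± 14.5 (SD, n = 6). In R9 the values were 17.4, 22.3, 17.5 and 21.9 in progenitors and 139 and 101 in stem cells.

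Cct6b lies at chr11:82719250-82764321 on the minus strand (ENSMUSG00000020698) and was near the detection limit. Gene CPM in R10 was 0.95, 1.15, 0.88 and 0.58 in progenitors and between 1.04 and 9.30 in stem cells, from 4 to 24 reads each. Cct6b.26 (5 exons, 672 bases, reading frame of 205 residues) held all 9 placed progenitor reads in R10. Cct6b.9 (9 exons, 1022 bases, reading frame of 228 residues) begins 12728 bases further downstream, at a CAGE-supported start. It was absent from progenitors and gave 2.31, 3.66, 0.43, 3.20, 0, 5.94 and 1.85 TPM in the R10 stem cell libraries of O4G n1, O4G n2, R1 n1, R1 n2, R1 without a number, R1-Clone3 n1 and R1-Clone3 n2. The progenitor form Cct6b.26 was also present in 3 of these 7 libraries, at 2.43 TPM in R1 n2, 0.69 TPM in R1-Clone3 n1 and 0.94 TPM in R1-Clone3 n2, from 3, 1 and 1 reads. In R9 it led in the O4G stem cells, at 3.11 TPM from 1 read (60.3% of the summed TPM), and was at 0 in R1. The share of Cct6b.9 in R10 stem cells was 45.0% ± 32.5 (SD, n = 7), so the libraries varied by most of the range. Cct6b.8 lacks the second exon of Cct6b.9, whose sequence is printed here because it separates these forms, with the junction after it (capitals for the bases that follow).
Cct6b.9 exon 2: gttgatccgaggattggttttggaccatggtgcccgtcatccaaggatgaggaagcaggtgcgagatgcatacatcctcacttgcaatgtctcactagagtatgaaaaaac
Cct6b.9 exon 2 to 3: agagtatgaaaaaacGGCATCGATCCGGTT
By line the R10 stem cell lead went to Cct6b.9 in O4G and R1-Clone3 and to Cct6b.8 in R1. With so few reads the order of the Cct6b forms was not resolved at this depth, and both R10 2i-LIF libraries had 0 reads of the gene.

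Dnah2os lies at chr11:69448548-69453676 on the plus strand (ENSMUSG00000086591), within Dnah2 (chr11:69420809-69549110, minus strand). All 3 of its transcripts were non-coding. Dnah2os.5 has 2 exons in 958 bases (chr11:69452318-69453690), begins 8935 bases downstream of Dnah2os.1 and has CAGE support at its start, which Dnah2os.1 and Dnah2os.4 lack. Part of its first exon (chr11:69452407-69452474) is the reverse complement of an annotated Dnah2 exon. That part and the junction after it are printed to show what separates Dnah2os.5 from the progenitor forms, with capitals for the bases after the junction.
Dnah2os.5 exon 1, readable part: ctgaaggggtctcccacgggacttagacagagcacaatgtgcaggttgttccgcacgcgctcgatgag
Dnah2os.5 exon 1 to 2: cacgcgctcgatgagGAAGGATTCGTCAGC
Dnah2os.5 was at 0 in all 8 progenitor libraries, which held 1 placed read of the gene in R9 and 10 in R10 (up to 30% of these), so little can be read from these zeros. It gave 5.33 and 9.37 TPM in the R10 O4G libraries, 10.1, 10.2 and 2.10 TPM in R1 and 5.36 and 9.89 TPM in R1-Clone3, from 94 reads, and 8.73 and 11.04 TPM in the R9 libraries. Whole-gene CPM in R10 was 0.95, 0.57, 2.20 and 0.58 in progenitors (1 to 5 reads) and 1.49 to 7.88 in stem cells (4 to 24 reads). On day 18 in R10 it was seen with 1 read in each of the 4 cultures. In R9 it was at 6.75 TPM on day 14 and 2.79 TPM on day 20 of OKMS and at 1.66 TPM on day 20 of OKS. Dnah2os.1 stood at 1.87, 1.09, 2.72 and 1.20 TPM in R10 progenitors. It is not given whether counting used strand, so reads counted for Dnah2os may include reads of Dnah2, and the reverse. As counted, Dnah2 had 0 reads in all 4 R10 progenitor libraries and 0.383 ± 0.389 CPM (SD, n = 7) in R10 stem cells.

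The day of the exchange was read from the time courses as the first day from which the stem cell transcript stayed above the progenitor transcript to the last sampled day. The leading transcripts of each chemistry were used, which in R9 made Tyro3.40 and Wdtc1.173 the stem cell transcripts of their genes and Dnah2os.4, with 1 read in 1 library, the progenitor transcript of Dnah2os. Each day rests on 1 library and mostly on 1 to 3 reads of the stem cell transcript. For Dnah2os it was day 14 in OKMS and day 20 in OKS in R9, and day 18 for both systems in R10. On the R9 days before, neither Dnah2os transcript was seen in the induced cells, and on day 20 each had 1 read in both systems (1.51 against 1.66 TPM in OKS), so the order there comes from transcript length. For Wdtc1 it was day 20 for both systems in R9 and day 18 for both in R10. For Tyro3 it was day 20 in R9 OKS and was not reached in R9 OKMS or in either R10 course, where Tyro3.147 returned on day 18. In these 3 courses Tyro3.40 or, in R10, Tyro3.37 was above Tyro3.147 on day 2, with 10 reads of Tyro3.37 in R10 OKS. For Pard3 and Cct6b no course reached it. On many days neither transcript was seen, among them all 6 OKS days of Pard3 in R9, days 4 to 20 of Tyro3 in R9 OKMS and days 2, 4, 6 and 10 of Wdtc1 in R10 OKMS. Tyro3.147 was already at 0 on day 2 in both systems and both chemistries, as was Pard3.149, whereas Wdtc1.21 was at 0 on day 2 in OKMS alone. These zeros rest on 2 to 15 placed Tyro3 reads, 2 to 31 placed Pard3 reads and, in OKMS, 1 placed Wdtc1 read per library, and the smallest of these numbers bound no share.

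The share of a gene's reads that could be placed at all was also lower in stem cells, and the zeros of the short transcripts cannot be told apart from this fall in placement. In R10, 824 of 1510 Tyro3 reads (54.6%) were placed on a quantified transcript in progenitors and 156 of 3342 (4.67%) in stem cells. For Pard3 the share went from 423 of 562 (75.3%) to 141 of 1066 (13.2%), and for Wdtc1 from 246 of 401 (61.3%) to 218 of 3422 (6.37%). In R9 the 3 genes went from 45.5% to 2.93%, from 54.3% to 19.8% and from 40.3% to 5.47%. Over the 7048 genes with a mean of at least 10 CPM in both R10 groups the median went from 50.8% to 53.3%, and 20 genes (0.284%) fell by 50 points or more. In R9 the median over 7160 genes was lower in stem cells, at 43.8% in progenitors and 38.4% in stem cells. The R10 changes were -62.0 points for Pard3, -55.0 for Wdtc1 and -49.9 for Tyro3, the last just short of that size. In R9 22 of the 7160 genes (0.307%) fell that far and none of the 3 did, with changes of -42.6 points for Tyro3, -34.4 for Pard3 and -34.9 for Wdtc1. Falls at least that large were seen in 0.503%, 0.824% and 0.81% of genes. The same fall was seen in the R10 medium controls, with 4.32% and 3.74% for Tyro3, 10.8% and 8.75% for Pard3 and 9.85% and 5.88% for Wdtc1. These shares come from the libraries that chose the genes and are given as a description. Most placed progenitor reads were of the chosen transcripts. Without Tyro3.147, Pard3.149 and Wdtc1.21, 79 of 824, 58 of 423 and 34 of 246 placed reads remained in R10 progenitors. The falls and their ranks among genes thus largely restate the zeros for which the genes were picked.

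An all-or-none pattern of this kind was uncommon among transcripts. Of 4289 transcripts with at least 10 TPM in all 8 progenitor libraries, 147 (of 139 genes) were at 0 in all 9 stem cell libraries. Of these, 44 belonged to genes that kept at least 50% of their CPM, among them Tyro3.147 and Pard3.149. The progenitor values and stem cell zeros of these 2 follow from the choice of the genes, so nothing is read from their place here. Wdtc1.21 was not among the 4289, since it had 5.81 TPM in 1 R9 progenitor library. For these 2 transcripts and for Wdtc1.21, the transcripts most like each in their values over libraries were named by the mean of the R9 and R10 Spearman correlations of TPM. For Pard3.149 they were Cd164.101 (rho 0.998 over 22 R9 and 0.992 over 23 R10 libraries) and Nploc4.384 (0.985 and 1). For Wdtc1.21 they were Prnp.117 (0.995 and 0.987) and Zfp703.29 (0.974 and 0.993), and for Tyro3.147 AU040320.216 (1 and 0.775) and Dcpp1.1 (0.998 and 0.777). These correlations rest mostly on which libraries are at 0, and the libraries share depth and chemistry.

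Medium and doxycycline without reprogramming factors could be tested together at the gene level by comparing wild-type progenitors with wild-type cells kept for 2 days in FBS-LIF with doxycycline, both in R10. Wdtc1 rose from 43.1 ± 1.17 to 112 ± 7.32 CPM (SD, n = 2 each), a log2 difference of 1.36 with a standard error of 0.21 (2.57-fold; limma on log2(CPM + 1), adjusted p = 0.00887). Tyro3 was at 107 ± 8.34 and 67.0 ± 7.65 CPM (log2 -0.66, adjusted p = 0.069), which did not pass, and Pard3 had a log2 difference of 0.07 (adjusted p = 0.88). Dnah2os was too low to be tested. Of all 14688 genes, 3940 (26.8%) passed an adjusted p of 0.05 and a log2 difference of 1, against which the call of 1 of 4 tested members is read. The Wdtc1 call was lost when any 1 of the 4 libraries was left out, with log2 differences of 1.30 to 1.43 and adjusted p of 0.062 to 0.19. The progenitor libraries here are among those used to choose the genes, so the comparison is not independent of that choice.

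Within genes, Tyro3.147 had a mean of 103 TPM in these progenitors and 0 in the medium, and Tyro3.37 had 2.55 and 0.991 TPM. Limma's differential splicing test, on transcripts of at least 1 TPM, called 1146 of 8891 genes (12.9%), Tyro3 and Wdtc1 among them. Their progenitor transcripts passed that minimum only in the progenitor libraries that chose them, so no p is given and nothing is read from these calls. In the medium the progenitor marker sum of R10 was 2872 to 5681 CPM, the stem cell marker sum stayed at 14.1 to 21.1 CPM, and astrocyte markers (5 of 5 in the table) summed to 1403 to 3288 CPM against 211 to 360 CPM in R10 progenitors. Their part in the result was not tested. The short progenitor transcripts of Tyro3, Pard3 and Wdtc1 were thus at 0 among the placed reads after 2 days in the medium with doxycycline and without reprogramming factors. In R10 stem cell markers were then as low as in progenitors. The R9 medium control had 38.2 CPM of them, against 14.8 to 33.7 CPM in R9 progenitors.

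OKMS and OKS were compared over the 6 matched R9 days in FBS-LIF with doxycycline, and none of the 4 tested members passed. Tyro3 was at 56.4 ± 18.1 CPM in OKS and 85.2 ± 38.6 CPM in OKMS (SD, n = 6), higher in OKMS on 5 of 6 days (limma log2 0.49, adjusted p = 0.29). Pard3 had a log2 difference of -0.40 (limma adjusted p = 0.33) and Wdtc1 one of -0.13 (adjusted p = 0.74). Of 14277 genes, 2567 (18%) were called in this comparison. The usage test passed for 302 of 9113 genes (3.31%), and Pard3, the only member with enough transcripts above the minimum, was not among them (adjusted p = 0.29). Its tested transcripts were Pard3.95, Pard3.87 and Pard3.60. Pard3.149 and Pard3.121 were not in this test, so it says nothing of their exchange.

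Wdtc1 was higher in 2i-LIF in all 5 matched pairs of the same system, day and chemistry. It rose from 66.2 ± 17.1 CPM in FBS-LIF with doxycycline to 165 ± 26.1 CPM in 2i-LIF (SD, n = 5 each; log2 1.33, standard error 0.20, 2.51-fold; limma adjusted p = 0.000239). By library, R9 2i-LIF gave 138 and 201 CPM in OKMS (days 14 and 20) and 141 CPM in OKS (day 20), and R10 gave 168 and 175.2 CPM on day 18. The groups did not overlap, and the call held in every alternative, with log2 differences of 1.14 to 1.47. Of 14935 genes, 1832 (12.3%) passed this test. Tyro3 (log2 0.58, adjusted p = 0.20), Pard3 (0.09, adjusted p = 0.89), Cct6b (0.04, adjusted p = 0.98) and Dnah2os (-0.77, adjusted p = 0.37) did not. The usage test passed for 88 of 7828 genes (1.12%), without Tyro3 (adjusted p = 0.82) or Pard3 (adjusted p = 0.42). For Pard3 the tested transcripts were Pard3.146 and Pard3.147, and Pard3.149 and Pard3.121 were not in the test. The 2i-LIF cultures differ from their pairs in doxycycline as well as in medium, since none is listed for 2i-LIF, and these cannot be told apart.

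**Figure D5:**
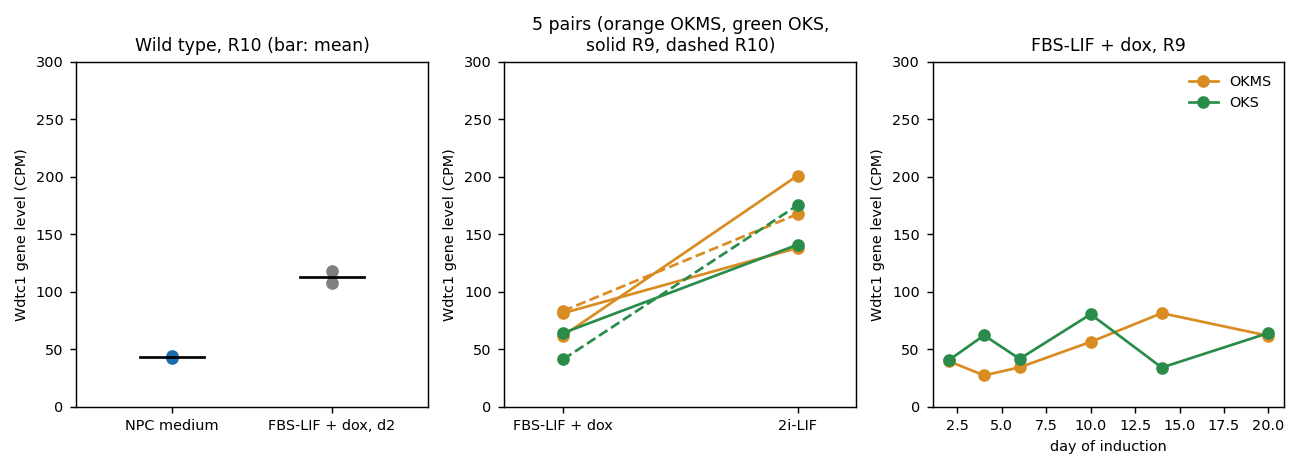
Wdtc1 gene level in CPM, each point 1 library, for wild-type R10 cells in progenitor medium and after 2 days in FBS-LIF with doxycycline (left, line at the mean), the 5 pairs of FBS-LIF with doxycycline and 2i-LIF (middle) and the R9 days of OKMS and OKS (right). All 5 pairs rise, to between 138 and 201 CPM in 2i-LIF, and the OKMS and OKS courses cross.

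Genes that act with the members were taken from lists, and their R10 levels in stem cells were set against those in progenitors, where 7067 of 15415 genes (45.8%) were called, 22.4% of all as higher and 23.5% as lower in stem cells (limma, adjusted p of 0.05 and log2 difference of 1). Among partners of Tyro3, 1 of 5 was higher and 3 lower in stem cells, with a median log2 difference of -1.75 against 0.01 over all genes. In R9 the median was -1.10 against -0.07 over all genes. Gas6, the TAM ligand, fell from 305 ± 91.1 to 17.4 ± 11.2 CPM (SD, n = 4 and 7; log2 -4.23, limma adjusted p = 1.09e-07), and the receptor Axl fell from 12.6 ± 2.03 to 1.34 ± 1.00 CPM (log2 -2.63, limma adjusted p = 1.70e-06). Lgals3, a galectin that has been described as a TAM ligand, rose from 0.658 ± 0.839 to 21.9 ± 5.07 CPM (log2 3.89, limma adjusted p = 1.06e-08). Of the polarity partners of Pard3, 4 of 12 were higher and 4 lower, with a median log2 difference of -0.39. In R9 their median was -0.62, against -0.07 over all genes. The kinase gene Prkcz rose from 0.630 ± 0.175 to 37.3 ± 5.61 CPM (log2 4.55, limma adjusted p = 1.01e-11), and F11r, a tight junction adhesion molecule, rose from 0.893 ± 0.246 to 56.6 ± 8.33 CPM (log2 4.92, limma adjusted p = 2.62e-12). Llgl2, a Lgl polarity protein, had 0 reads in all 4 progenitor libraries and 48.7 ± 13.8 CPM in stem cells. Of 6 CUL4-DDB1 genes, the scaffold Cul4b rose from 23.6 ± 6.30 to 97.8 ± 26.7 CPM (log2 1.97, limma adjusted p = 3.76e-06) and its paralog Cul4a fell from 66.8 ± 9.60 to 28.0 ± 7.20 CPM (log2 -1.25, limma adjusted p = 2.27e-05), and the other 4 did not pass.

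The TRiC subunits had a median log2 difference of 0.61 between R10 stem cells and progenitors, and none was called. In R9 the median was 0.63, against -0.07 over all genes. In the medium control all 8 subunits were lower, with a median log2 difference of -1.48 against 0.12 over all genes, of which 11.9% were called lower. Tcp1 went from 633 ± 18.7 to 185 ± 24.7 CPM (SD, n = 2 each; log2 -1.77, limma adjusted p = 0.00461). These calls share the limit of the medium comparison, in which 3 of the 4 fits with 1 library left out called 0 genes. Between OKMS and OKS, 2 of the 8 subunits passed as higher in OKMS, where 6.93% of all genes were called higher and 11% lower, with Cct6a at 447 ± 386 CPM in OKS and 785 ± 313 CPM in OKMS (SD, n = 6; log2 1.04, limma adjusted p = 0.00255) and Cct8 at 445 ± 232 and 868 ± 264 CPM (log2 1.03, limma adjusted p = 0.00249). Among the partners of Tyro3, 3 of 5 rose in the medium, and among those of Pard3 3 of 10 did, where 14.9% of all genes were called higher. In 2i-LIF 3 of 6 partners of Tyro3 fell, where 6.32% of all genes were called lower and 5.95% higher. Of the genes around Dnah2os, 2 of 7 were higher and 1 lower in R10 stem cells than in progenitors. Their median log2 difference was 0.10 in R10 against 0.01 over all genes, and 0.47 in R9 against -0.07. Trp53, the tumour suppressor p53, stood at 104 ± 9.50 CPM in progenitors and 376 ± 40.5 CPM in stem cells (SD, n = 4 and 7; log2 1.85, limma adjusted p = 1.14e-09) and Wrap53 at 21.2 ± 5.68 and 48.1 ± 16.5 CPM (log2 1.12, limma adjusted p = 0.000618). The histone demethylase gene Kdm6b fell from 97.3 ± 20.9 CPM in progenitors to 19.2 ± 16.4 CPM in stem cells (log2 -2.53, limma adjusted p = 2.20e-05). Beside Cct6b, Rffl rose from 2.90 ± 2.46 CPM in progenitors to 9.80 ± 1.65 CPM in stem cells (log2 1.66, limma adjusted p = 0.000213), and the other 2 neighbours did not pass.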

How the data were processed

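Gene values were CPM and transcript values TPM, both deposited by the authors in tables named after IsoQuant. A deposited SQANTI3-style classification gave exon numbers and reading frames. Its column of the percent of A downstream of each end, per the file headers, was not tested. Minimap2 2.24-r1122 and mm10 are named in the submitters' processing notes, and the authors' transcript filter and use of strand are not given in the sources used here. A further 13 columns of the gene table matched no sample and were not used.

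CPM values, and TPM values multiplied by transcript length, came out as whole reads (100% of values, tolerance 0.02 reads), from which read numbers and depth were taken. A placed read is one recovered from a transcript's TPM. Genes with at least 1 CPM in as many libraries as the smaller group holds were tested with limma 3.58.1 on log2(CPM + 1), with the day or the pair as a block between OKMS and OKS and between 2i-LIF and FBS-LIF, two-sided with Benjamini-Hochberg adjustment over all genes. A call needed an adjusted p below 0.05 and a log2 difference of at least 1. Transcript usage within genes came from diffSplice of limma on log2(TPM + 1) for transcripts of at least 1 TPM. Recovered reads were tested with edgeR 4.0.16 and DESeq2 1.42.0 as alternatives. edgeR called 3964 genes in the medium comparison, 2322 between OKMS and OKS, 1932 between 2i-LIF and FBS-LIF and 7599 between stem cells and progenitors. DESeq2 called 3490, 2227, 1242 and 7523 in the same order. The fits were tested on simulated data. Shares have exact (Clopper-Pearson) 95% intervals, and these and the limits for 0 reads (3 reads) cover counting error only.

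The members and lists were chosen with earlier results of these data known. The members are described in full, and of each list up to 3 genes with the largest called R10 difference between stem cells and progenitors are named, with any list gene overlapping a member. No TRiC subunit was called there. Tcp1, Cct6a and Cct8 were named outside this rule, from the medium comparison and from OKMS against OKS. Like transcripts are the 2 with the highest mean Spearman correlation. Analyses used R 4.3.3, Python 3.11.15, pandas 2.3.3, numpy 2.4.6, SciPy 1.17.1 and matplotlib 3.10.9.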

Additional observations from a re-analysis of the deposited data

Results flagged for a closer look

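Among 33 groups of 4 to 10 libraries checked, 6 held a value far from the others by Dixon's 95% criterion. It flags about 1 in 20 groups of normally distributed values by chance. Wdtc1 gene CPM was 281 in the R10 R1 stem cell library without a replicate number, against 118 to 157 in the other 6. Tyro3 gene CPM was 191 in the first R10 O4G stem cell library, against 130.3 to 156 in the other 6. Tyro3.37 was at 3.61 TPM in the first R10 R1-Clone3 library, against 1.43 to 1.99 TPM. Cct6b.26 was at 2.43 TPM in the second numbered R10 R1 library, against 0 to 0.940 TPM. In the R9 progenitors, Dnah2os was at 0.968 CPM and Dnah2os.4 at 2.04 TPM in wild-type replicate 2 (1 read), against 0 in the other 3 libraries. Both flags come from that same read, and the chance rate does not hold for values at the floor.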

How the results depend on the processing

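Of 139 member log2 differences under other settings, 126 kept their direction and side of the threshold. The call of Wdtc1 in 2i-LIF held throughout. Directions turned for differences near 0: Pard3 in the medium (-0.13 without progenitor replicate 2, -0.19 without medium replicate 3), Cct6b in the medium (0.18 without medium replicate 2), Wdtc1 between OKMS and OKS (0.076 without the day 4 pair), Pard3 in 2i-LIF (-0.33 without the OKMS day 20 pair) and Cct6b in 2i-LIF (-0.19 with a pseudocount of 0.25, -0.62 and -0.26 without the OKMS or the OKS day 20 pair). The R9 share difference of Tyro3.40 became -6.36 without the O4G library.

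With 1 library or pair left out, calls ran from 0 to 1141 in the medium (0 in 3 of the 4 fits, where 1 group had 1 library whose spread is assumed to equal the other's), from 1686 between OKMS and OKS (without day 6) to 3236, and from 1210 in 2i-LIF (without the R9 OKS pair) to 1908, and were 1166 with R9 pairs only. Usage calls in the medium were 622 at a minimum of 5 TPM and 3133 with no filter, and 21, 23, 406 and 802 without progenitor replicate 3, progenitor replicate 2, medium replicate 2 and medium replicate 3. Between OKMS and OKS they were 171 with a pseudocount of 0.25, 122 at 5 TPM, 2110 with no filter, 721 with R10 pairs added and 134, 159, 185 and 197 without the pair of day 4, 6, 10 or 14, and at most 265 with another pair left out. In 2i-LIF they were 25, 29 and 1140 at the same first 3 settings, 0 with R9 pairs only (limma; 522 at an unadjusted p below 0.05) and 21, 26, 46 and 48 without the R9 OKS, R9 OKMS day 14, R10 OKS or R9 OKMS day 20 pair, and 61 without the R10 OKMS pair. A usage fit without a filter holds many transcripts at 0. The cause of the other changes was not tested.

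Counting the first day above, Wdtc1 in R9 OKMS moved from 20 to 10 and Tyro3 in R9 OKS from 20 to 2, Tyro3 in R9 OKMS, R10 OKMS and R10 OKS went from no day to day 2, and with a share of at least 50% no day was reached for Tyro3 in R9 OKS or for Wdtc1 in R9 OKS and R10 OKMS. Of 256 share values, 16 moved and 239 did not. As shares of reads, chosen after seeing the data, the R10 differences were -90.4 points for Tyro3.147, -86.2 for Pard3.149, -86.9 for Wdtc1.21 and 35.9 for Wdtc1.39. With a replicate block in the medium comparison 5605 genes and 1412 usage genes were called. Same-numbered libraries deviated together (correlation 0.474 over 14688 genes), but 2 pairs do not establish the pairing. Depth limits Cct6b and Dnah2os most.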
